A study of Mus musculus with 6 samples.

Results

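Genes that build the secretory granules of platelets were examined in the transcriptome of sorted bone marrow (BM) megakaryocytes (MKs). The set holds 10 genes chosen by name from the 16579 genes of the deposited table: Nbeal2, Vps33b, Vipas39, Hps1, Hps3, Hps4, Hps5, Hps6, Lyst and Ap3b1. All 10 genes passed the filter on low counts, which left 12256 genes for testing.

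The data were 6 RNA-seq libraries, each from mouse BM MKs isolated by flow cytometry. In 3 libraries the mice carried the floxed Becn1 allele on both chromosomes and no Cre (Becn1f/f). In the other 3 the same floxed allele was combined with a Cre transgene driven by the promoter of Pf4, a gene of the MK lineage (Becn1f/f;Pf4-iCre). Becn1 encodes Beclin 1, a scaffold of the lipid kinase complex that starts autophagosome formation. The mice were 3 months old. Both groups therefore carried the loxP sites, and no group had an unmodified Becn1 locus or Cre without loxP sites. The labels do not say whether a library came from 1 mouse or from pooled mice, so the p-values below measure the spread between these libraries. The comparison asked whether transcripts of the granule-building machinery differed between these genotypes.

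Platelets store their cargo in alpha granules, which carry adhesive proteins, clotting factors and chemokines, and in dense granules, which carry serotonin, nucleotides and calcium. Both are assembled inside the MK from endosomal and Golgi-derived vesicles. Dense granules belong to the lysosome-related organelles, and their formation needs the adaptor complex AP-3 and the sorting complexes BLOC-1, BLOC-2 and BLOC-3. Inherited loss of subunits of AP-3 or of these BLOC complexes causes Hermansky-Pudlak syndrome, in which dense granules are missing. Alpha granules depend on the BEACH domain protein NBEAL2, which is lost in gray platelet syndrome, and on the vesicle-tethering pair VPS33B and VIPAS39.

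Promoters of the subunits of BLOC-2 and of 1 subunit of BLOC-3 are shown because 3 of these genes held the same short motif. The sequences are those of RefSeq on GRCm38.p6 and run from 250 bases before to 50 bases after the annotated start. This is not the build of the deposited table (GRCm39). Each is written 5′ to 3′ on the strand of the gene. Capitals mark CACGTG, the E-box core of the CLEAR element through which TFEB drives lysosomal genes. In Hps1 they also mark GCTGAGTCA, a motif bound by NF-E2, a transcription factor of MKs, whose last 2 bases are the first bases of the E-box. The capitals of Hps1 therefore run over both motifs.
Hps5, chr7:46795832-46796131, minus strand: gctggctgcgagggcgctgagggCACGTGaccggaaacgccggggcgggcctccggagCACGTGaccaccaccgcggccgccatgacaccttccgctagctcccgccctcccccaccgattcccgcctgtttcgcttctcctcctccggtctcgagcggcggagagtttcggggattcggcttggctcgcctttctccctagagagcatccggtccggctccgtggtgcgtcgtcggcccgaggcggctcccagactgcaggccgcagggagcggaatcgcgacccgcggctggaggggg
Hps3, chr3:20035261-20035560, minus strand: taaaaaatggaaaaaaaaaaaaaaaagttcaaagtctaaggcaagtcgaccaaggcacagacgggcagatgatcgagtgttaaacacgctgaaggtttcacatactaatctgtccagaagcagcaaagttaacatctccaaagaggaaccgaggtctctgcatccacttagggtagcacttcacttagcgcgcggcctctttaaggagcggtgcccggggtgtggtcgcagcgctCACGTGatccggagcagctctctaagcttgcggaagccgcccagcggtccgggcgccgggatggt
Hps6, chr19:46003228-46003527, plus strand: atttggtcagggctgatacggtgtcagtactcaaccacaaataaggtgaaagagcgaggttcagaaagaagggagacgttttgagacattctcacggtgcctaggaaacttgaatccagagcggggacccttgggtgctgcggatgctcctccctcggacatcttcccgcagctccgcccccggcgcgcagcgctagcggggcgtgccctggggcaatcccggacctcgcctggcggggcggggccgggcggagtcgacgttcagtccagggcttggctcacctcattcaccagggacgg
Hps1, chr19:42779929-42780228, minus strand: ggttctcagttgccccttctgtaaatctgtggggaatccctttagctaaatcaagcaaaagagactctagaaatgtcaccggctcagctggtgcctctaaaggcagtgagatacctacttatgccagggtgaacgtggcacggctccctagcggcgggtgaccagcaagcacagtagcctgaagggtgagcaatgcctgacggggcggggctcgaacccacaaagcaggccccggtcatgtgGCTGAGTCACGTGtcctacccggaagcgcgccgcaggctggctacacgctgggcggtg

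The RefSeq table held 11 promoters for 9 of the 10 genes, with 2 each for Hps1 and Vipas39. CACGTG, which reads the same on both strands, occurred in 3 of the 11 (27.3%) and in 7.15% of all 32851 promoters in the table. This motif holds a C followed by a G. That pair reached at least 0.6 of the number expected from base composition in 7 of the 11 promoters, against 35.8% of all promoters. The part of this in the share with CACGTG was not tested. In Hps5 CACGTG occurred in 2 places, 227 and 192 bases before the start. In Hps3 it began 15 bases before the start, and in Hps1 it began 1 base before the start. GCTGAGTCA, searched on both strands, was present in Hps1 alone among the 11 and in 0.454% of all promoters. GATA motifs (AGATAA, with T allowed as the first base and G as the last, both strands) were present in both promoters of Vipas39 and in 29.8% of all promoters. The ETS motif CCGGAAGT was present in none of the 11 and in 3.89% of all promoters. A match of letters is a description of the sequence and was not linked to binding in these cells.

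The libraries held between 16467560 and 17156728 estimated counts. Becn1 itself had an FPKM (fragments mapped to a gene, scaled for its length and for library size) of 84.5, 72.2 and 81.9 in Becn1f/f libraries and of 68.7, 72.5 and 73.0 in Becn1f/f;Pf4-iCre libraries. These ranges overlapped, and the log2 fold change was -0.15 (95% interval -0.42 to 0.12, adjusted p = 0.94). The counts are given per gene and not per exon, so this value does not measure the deletion itself. The cause of the overlap was not tested. Below, the second group is called the libraries labelled Becn1f/f;Pf4-iCre. The labelled cell type was checked against 16 MK and platelet markers. Cd9 (mean FPKM 131.8), Itga2b (52.5, encoding CD41), Itgb3 (21.7), Pf4 (13.3) and Ppbp (7.06) stood highest, and the other 11 had a mean FPKM under 5. Among these, the platelet receptor genes Gp9 (2.09), Gp1ba (1.38), Gp5 (1.05), Gp1bb (1.01) and Gp6 (0.275) were near 0. The 16 markers together took 0.0367% to 0.0541% of all counts per library. Markers of neutrophils took 0.933% to 1.69% and those of mast cells, basophils and eosinophils took 0.392% to 0.875%. The levels below are those of the whole sorted population. In such bulk libraries, fewer cells of a type and less RNA per cell cannot be told apart.

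All 10 genes were detected in all 6 libraries, with 163 to 9636 estimated counts per library. Ordered by mean FPKM, which is scaled for transcript length, Ap3b1 stood first (39.5), ahead of Nbeal2 (39.0), Hps3 (36.5) and Lyst (34.7). These 4 genes lay at percentiles 77.2 to 80.0 of the mean FPKM of all tested genes. Their ranges over the 6 libraries overlapped from one neighbour to the next, so their order is not resolved. Lyst had a higher FPKM than Hps1, the next gene, in all 6 libraries, and these ranges did not overlap. Hps1 (21.3), Hps5 (19.2) and Vipas39 (16.6) formed a middle group whose neighbours overlapped. Hps4 (9.71) and Vps33b (8.63) came next, below Vipas39 without overlap, and overlapped each other. Hps6 was the lowest at 4.72, at percentile 29.5, and its highest library (5.94) was below the lowest library of Vps33b (7.11).

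**Figure D1:**
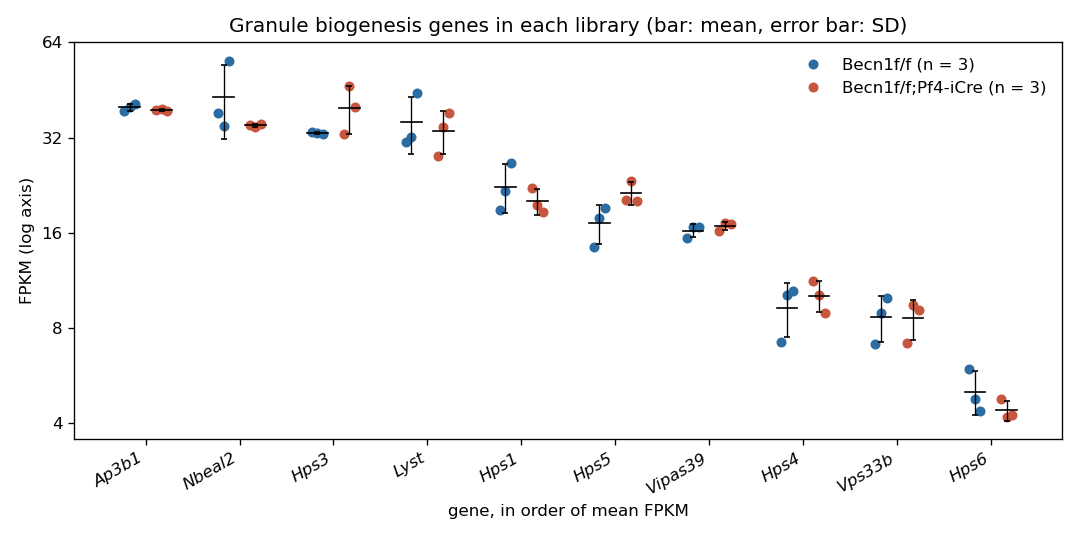
FPKM of the 10 genes on a log axis, in order of mean FPKM. Each point is 1 library, blue for Becn1f/f and red for Becn1f/f;Pf4-iCre (n = 3 each), with bars at the mean and error bars of 1 SD; the levels run from 4.18 (Hps6) to 56.0 (Nbeal2), and Nbeal2, Lyst and Hps1 each have 1 high Becn1f/f library.

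None of the 10 genes was a differentially expressed gene (DEG) between the genotypes, a DEG being a gene with a fold change of at least 1.5 and an unadjusted P under 0.05 in edgeR's quasi-likelihood test. Over all tested genes this rule called 282 of 12256 (2.30%), 167 higher and 115 lower in the libraries labelled Becn1f/f;Pf4-iCre. DESeq2 and limma-voom also called 0 of the 10. At an unadjusted P under 0.05 alone, 1 gene passed, Hps5, against 6.31% of all tested genes in either direction and 3.92% in the higher direction. At an adjusted p under 0.05 none passed in edgeR, against 0.0408% of all tested genes, and none in DESeq2 (lowest 0.64). The adjusted p-values of the 10 genes ran from 0.70 to 1. Their log2 fold changes ran from -0.28 (Nbeal2) to 0.34 (Hps5), 5 above and 5 below 0, with a median of 0.00 beside -0.02 over all tested genes. For 8 of the 10 the 95% interval lay inside a 1.5-fold change in either direction (0.58 on the log2 scale), so at this depth and spread a DEG-sized difference lay outside their intervals. For Hps5 and Nbeal2 the interval reached beyond it. In CPM, counts scaled by TMM-adjusted library size, Hps5, Hps3 and Vipas39 (3 of the 10 genes) had separate ranges in the 2 genotypes, against 10.6% of all tested genes. With the library total alone, or in FPKM, Hps5 was the 1 gene of the 10 with separate ranges, against 10.2% of all tested genes on either scale.

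**Figure D2:**
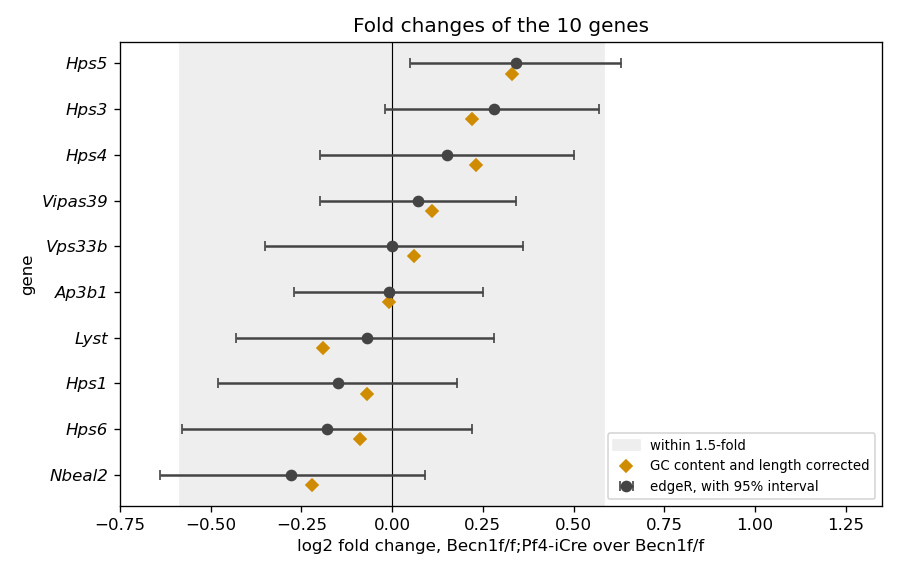
Log2 fold changes of the 10 genes, libraries labelled Becn1f/f;Pf4-iCre over Becn1f/f. Dots and bars are edgeR estimates with 95% intervals, diamonds are estimates with GC and length offsets, and the shaded band is a change of less than 1.5-fold; every dot lies inside the band, and the intervals of Hps5 and Nbeal2 leave it.

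BLOC-2, which steers vesicles towards maturing lysosome-related organelles, is built from HPS3, HPS5 and HPS6. Hps5 had an FPKM of 14.5, 17.8 and 19.1 in Becn1f/f libraries and of 20.4, 23.4 and 20.2 in the libraries labelled Becn1f/f;Pf4-iCre, with no overlap. The means were 17.1 ± 2.39 and 21.3 ± 1.79 (SD, n = 3 each). Its transcript was 1.26-fold higher (log2 fold change 0.34, standard error 0.13, 95% interval 0.05 to 0.63, unadjusted P = 0.026), which did not pass the correction over 12256 genes (adjusted p = 0.70 from edgeR). The unadjusted P in edgeR was 0.068 without Becn1f/f replicate 1 and 0.11 without Becn1f/f;Pf4-iCre replicate 2. It ran from 0.021 to 0.045 when any other library was left out. Hps3 was even in the controls, at 33.4, 33.1 and 32.9, beside 32.9, 46.6 and 39.9 in the libraries labelled Becn1f/f;Pf4-iCre. On this scale the lowest of these 3 lay within the control range, while by TMM-scaled CPM all 3 (107.3, 138.9 and 125.1) were above the controls (105.5, 102.8 and 98.4). The log2 fold change of Hps3 was 0.28 (interval -0.02 to 0.57, adjusted p = 0.82). It was 0.18 without Becn1f/f;Pf4-iCre replicate 2, the highest library. Hps6 differed in sign, with an FPKM of 5.94, 4.79 and 4.39 in Becn1f/f and of 4.77, 4.18 and 4.24 in the other group, which overlapped. Its log2 fold change was -0.18 (interval -0.58 to 0.22, adjusted p = 0.95) and was -0.01 without Becn1f/f replicate 1.

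BLOC-3, the exchange factor that activates the small GTPases RAB32 and RAB38, is a pair of HPS1 and HPS4. Hps1 had an FPKM of 18.9, 21.7 and 26.6 in Becn1f/f libraries and of 22.2, 19.5 and 18.6 in the libraries labelled Becn1f/f;Pf4-iCre. Hps4 had 7.21, 10.2 and 10.4 in Becn1f/f and 11.2, 10.2 and 8.96 in the other group. Both genes overlapped between genotypes. Their log2 fold changes were -0.15 for Hps1 (interval -0.48 to 0.18) and 0.15 for Hps4 (interval -0.20 to 0.50), each with an adjusted p of 0.96 from edgeR. With 1 library left out, Hps1 ran from -0.24 (without Becn1f/f;Pf4-iCre replicate 1) to -0.02 (without Becn1f/f replicate 3), and Hps4 from 0.04 (without Becn1f/f replicate 1) to 0.22. Hps4 shares its annotated span with Srrd (mean FPKM 10.1), and strand-specific counting is not stated in the sources used here, so reads of the overlap may be split between them.

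Ap3b1 encodes the beta subunit of AP-3, which sorts membrane proteins from endosomes to lysosome-related organelles. Its FPKM was 38.8, 40.0 and 40.8 in Becn1f/f libraries and 39.2, 39.5 and 38.9 in those labelled Becn1f/f;Pf4-iCre. The FPKM values spread by 2.51% (coefficient of variation) in the first group and by 0.702% in the second, and overlapped. By TMM-scaled CPM the order of the spreads was reversed, at 0.789% and 2.25%. The log2 fold change was -0.01 (interval -0.27 to 0.25, adjusted p = 1). Its interval is among the narrowest of the 10 genes, and a change of 1.5-fold lies outside it.

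VPS33B and VIPAS39 form a complex that tethers vesicles bound for the alpha granule. Vps33b had an FPKM of 7.11, 8.91 and 9.96 in Becn1f/f libraries and of 7.18, 9.48 and 9.12 in the libraries labelled Becn1f/f;Pf4-iCre. The lowest library of each group was nearly equal, and the log2 fold change was 0.00 (interval -0.35 to 0.36, adjusted p = 1). Its sign was not settled, with -0.09 to 0.10 when 1 library was left out. Vipas39 was more even, at 15.4, 16.7 and 16.7 in Becn1f/f and 16.3, 17.2 and 17.1 in the other group. By TMM-scaled CPM the groups of Vipas39 did not overlap (35.3 to 36.8 and 37.6 to 37.9), while in FPKM they did, and the difference was small, with a log2 fold change of 0.07 (interval -0.20 to 0.34, adjusted p = 0.98).

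NBEAL2 and LYST are large BEACH domain proteins. Loss of LYST causes Chediak-Higashi syndrome, with giant lysosomes and a lack of dense granules. Nbeal2 had an FPKM of 38.4, 34.8 and 56.0 in Becn1f/f libraries and of 35.0, 34.6 and 35.5 in the libraries labelled Becn1f/f;Pf4-iCre. Becn1f/f replicate 3 stood apart from the other 5 libraries, which lay between 34.6 and 38.4. The log2 fold change was -0.28 (standard error 0.17, interval -0.64 to 0.09, adjusted p = 0.88). It was -0.07 (unadjusted P = 0.65 in edgeR) without Becn1f/f replicate 3 and -0.41 (unadjusted P = 0.031 in edgeR) without Becn1f/f replicate 2. Lyst was highest in the same library, with an FPKM of 31.0, 32.1 and 44.2 in Becn1f/f and of 28.0, 34.7 and 38.2 in the other group, and its groups overlapped. Its log2 fold change was -0.07 (interval -0.43 to 0.28, adjusted p = 0.98) and 0.08 without Becn1f/f replicate 3. In CPM, Becn1f/f replicate 3 was 1.47 times the mean of the other Becn1f/f libraries for Nbeal2, 1.33 times for Lyst and 1.28 times for Hps1. It held the highest CPM of all 6 libraries for 4 of the 10 genes. Several summed lists were also highest in that library. B cell markers took 0.0297% of its counts beside 0.0165% to 0.0218% in the other 5, and T and NK cell markers (0.00756%), endothelial and stromal markers (0.0151%), MK transcription factors (0.0966%), Rab GTPases and effectors (0.107%) and other BEACH domain genes (0.0841%) peaked there too, as did the AP-3 and the HOPS and CORVET lists. Their part in these values was not tested.

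**Figure D3:**
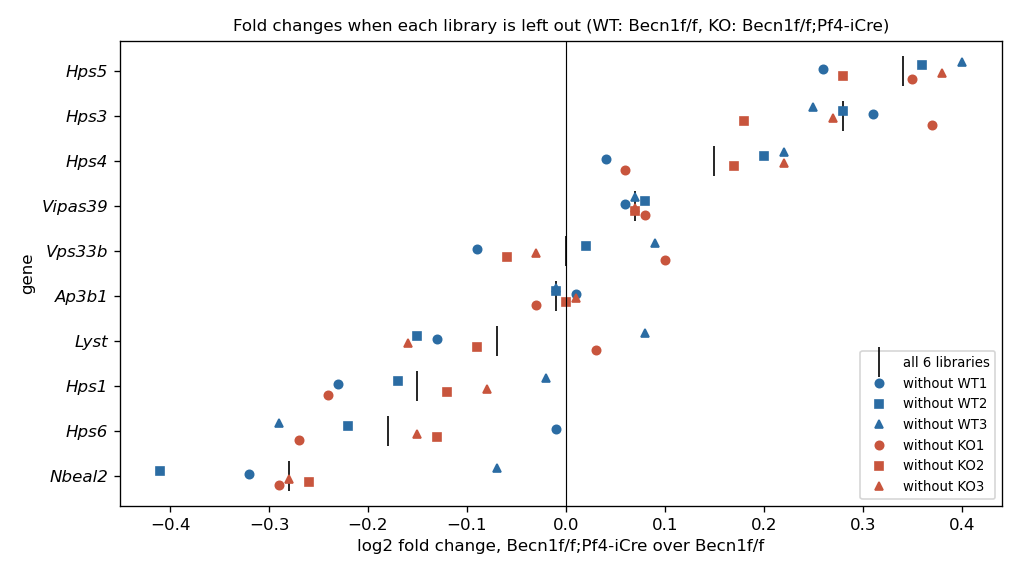
Log2 fold changes of the 10 genes with each library left out in turn. The vertical tick is the estimate from all 6 libraries, and each marker omits 1 library (blue, Becn1f/f; red, Becn1f/f;Pf4-iCre); Nbeal2 moves between -0.41 and -0.07, Lyst crosses 0, and Hps5 stays between 0.26 and 0.40.

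Fold changes over all genes varied with base composition, with a Spearman correlation of -0.34 with the GC content of transcripts across 12068 genes, which are not independent replicates. The 10 genes range from 43.6% GC (Hps3) to 59.9% (Nbeal2). The genes with negative log2 fold changes included the 3 richest in GC (Nbeal2, Hps6 and Hps1). Lyst (45.6% GC) and Hps4 (55.9% GC) went the other way, with Lyst below 0 and Hps4 above 0. After offsets for base composition and length were added to the fit, the log2 fold change became 0.23 for Hps4, -0.19 for Lyst, -0.09 for Hps6 and -0.07 for Hps1, each moving by over 1.5 times. For Vipas39 it became 0.11 and for Vps33b 0.06. Hps5 (0.33, unadjusted P = 0.011, adjusted p = 0.44 in edgeR) and Hps3 (0.22, unadjusted P = 0.035, adjusted p = 0.59 in edgeR) passed the unadjusted threshold in this fit. Hps5 had also passed it without the offsets. Over all tested genes that threshold was passed by 960 of 12256 with the offsets and by 773 without them. None of the 10 genes reached a 1.5-fold change under the correction.

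Ratios between subunits of a complex were computed inside each library, where library size cancels. Hps1 stood at 2.62, 2.13 and 2.55 times Hps4 in Becn1f/f libraries and at 1.97, 1.91 and 2.08 times in the libraries labelled Becn1f/f;Pf4-iCre. These ratios did not overlap, and the difference was -0.29 on the log2 scale (exact two-sided permutation test, p = 0.1, the smallest p that 3 against 3 libraries allow; adjusted p = 0.6 over the 6 ratios). Within BLOC-2, the ratio of Hps5 to Hps6 was 2.44, 3.72 and 4.35 in Becn1f/f and 4.27, 5.60 and 4.77 in the other group, a log2 difference of 0.51 (exact permutation p = 0.2, adjusted p = 0.6). The ratio of Hps3 to Hps6 differed by 0.44 (exact permutation p = 0.3, adjusted p = 0.6). Both overlapped between genotypes. The ratio of Hps3 to Hps5, the BLOC-2 subunits with the higher FPKM, differed by -0.07 (exact permutation p = 0.7, adjusted p = 0.84). Vps33b stood at 0.442 to 0.596 of Vipas39 over the 6 libraries, with a log2 difference of -0.06 (exact permutation p = 0.7, adjusted p = 0.84). Ap3b1 and Ap3d1, which encodes the delta subunit of AP-3, were near parity (0.836 to 1.10), with a log2 difference of 0.00 (exact permutation p = 1, adjusted p = 1).

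**Figure D4:**
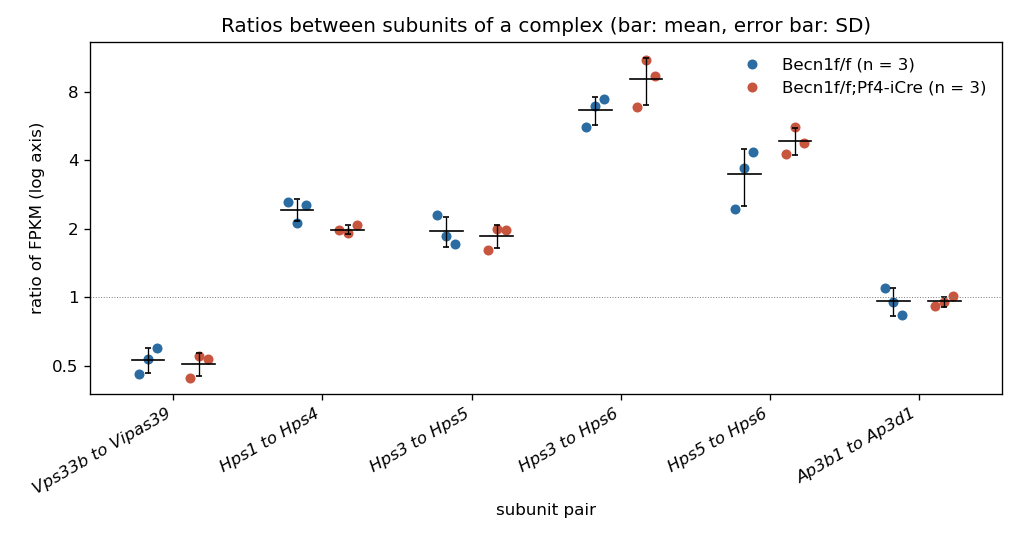
Ratios of FPKM between subunits of the same complex, on a log axis. Each point is 1 library (n = 3 per genotype), bars are means and error bars 1 SD; only the ratio of Hps1 to Hps4 has no overlap between genotypes among the 6 ratios, with 2.13 to 2.62 in Becn1f/f and 1.91 to 2.08 in Becn1f/f;Pf4-iCre.

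The rest of the granule machinery was read from 7 further lists of 63 genes, of which 60 were tested. edgeR called none of the 60 as DEGs, and DESeq2 and limma-voom called none. At an unadjusted P under 0.05, 3 of the 60 passed in edgeR, against 6.31% of all tested genes, and 2 passed in DESeq2. In edgeR the share among the 60 was thus not above that of all tested genes. The lowest adjusted p of the 60 in edgeR was 0.54. Their median log2 fold change was -0.02, equal to that over all tested genes. The 3 genes, which are named because they passed, were Wdfy3 (0.37), a BEACH domain gene linked to selective autophagy, Chml (0.40), an escort protein for the lipid modification of Rab GTPases, and Slc17a9 (-0.38), the vesicular nucleotide transporter that loads ATP into dense granules. Among 8 subunits of BLOC-1, which acts upstream of BLOC-2, none passed at an unadjusted P under 0.05, and Bloc1s1 and Bloc1s2 had log2 fold changes of 0.15 and -0.05. Among 5 tested AP-3 subunits other than Ap3b1, none passed, and Ap3s1 had -0.28 and Ap3d1 -0.01. Ap3b2, the neuronal beta subunit, was listed at 0. Among the 8 HOPS and CORVET subunits, which tether late and early endosomes, none passed, with -0.07 for Vps16 and -0.17 for Vps18. Rab32 (0.02) and Rab27a (0.03), GTPases of granule formation and release, did not pass. Nor did the release SNARE Vamp8 (-0.06) or Stxbp2 (-0.17), another gene of the secretion machinery. The dense granule membrane genes Cd63 (-0.36, adjusted p = 0.90 in edgeR) and Lamp2 (0.10) did not pass either.

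**Figure D5:**
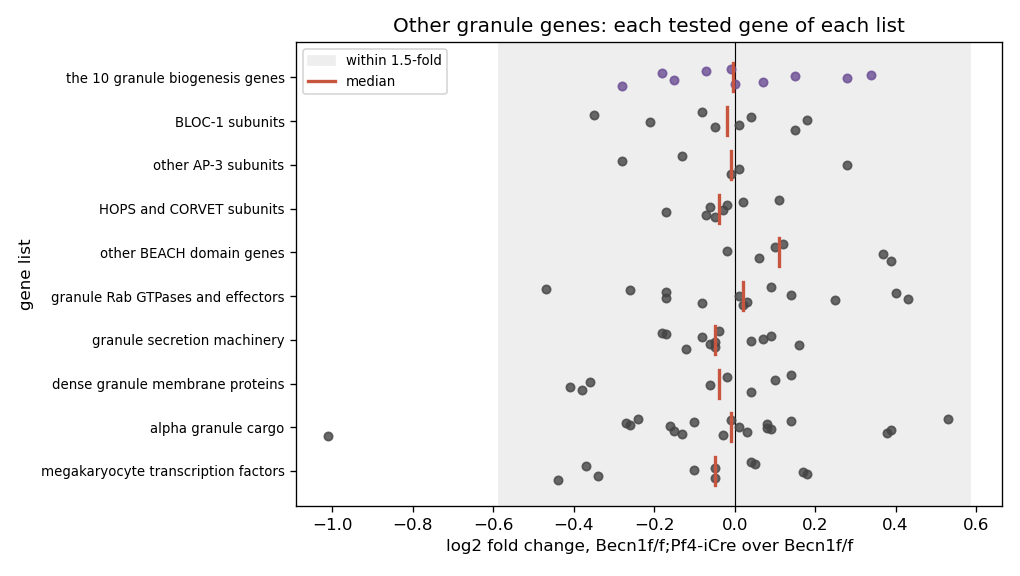
Log2 fold changes of each tested gene (dots) of the 10 granule biogenesis genes and of 9 further lists, with the median of each list (red tick) and a band for changes of less than 1.5-fold. The list medians lie between -0.05 and 0.11, and 1 dot leaves the band, Pf4 at -1.01 among alpha granule cargo.

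Of 19 tested genes of alpha granule cargo, 1 was a DEG, against 2.30% of all tested genes. Pf4, platelet factor 4, had an FPKM of 7.88 to 24.1 over the 6 libraries, with means of 17.9 ± 5.46 in Becn1f/f and 8.80 ± 1.39 in the libraries labelled Becn1f/f;Pf4-iCre (SD, n = 3 each) and no overlap. Its log2 fold change was -1.01 (standard error 0.29, unadjusted P = 0.0045, adjusted p = 0.42 in edgeR). Fn1 (fibronectin, 0.53) and F13a1 (the A chain of clotting factor XIII, 0.39), the latter named for its value, passed an unadjusted P under 0.05 in the higher direction, with adjusted p-values of 0.48 and 0.57 in edgeR. Of all tested genes, 3.92% did so in that direction. Which cells of the sorted population gave these cargo transcripts was not tested. Srgn, the proteoglycan that packs granule contents, had a log2 fold change of 0.01. The median of the cargo list was -0.01. Of 10 MK transcription factors none was a DEG in edgeR, and Gata1 (-0.44) and Zfpm1 (-0.37), its cofactor, passed an unadjusted P under 0.05, with adjusted p-values of 0.60 and 0.77. For scale, 6.31% of all 12256 tested genes passed it, 293 of them in the lower direction. Nfe2 had -0.10 and Gata2 -0.05.

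Marker lists of other blood cells held DEGs between the genotypes. In edgeR none of them passed at an adjusted p under 0.05 (lowest 0.057 for Mrc1 and 0.089 for Slc4a1), whereas in DESeq2 Mrc1 (adjusted p = 6e-06) and Slc4a1 (adjusted p = 5.6e-05) did. For scale, 2.30% of all 12256 tested genes were DEGs (167 higher and 115 lower), with a median log2 fold change of -0.02. Over all genes DESeq2 called 234, limma-voom 283 and limma on log2(FPKM + 1) 121, and 225 to 410 were called with 1 library left out. Of 13 tested erythroid markers, all 13 had log2 fold changes below 0 (median -0.64), and 6 were DEGs (Hba-a1, Alas2, Klf1, Slc4a1, Ermap and Rhag). DESeq2 called 3 erythroid markers, limma on log2(FPKM + 1) called 1, and 3 to 8 were called with 1 library left out (3 without Becn1f/f replicate 1 or Becn1f/f;Pf4-iCre replicate 1). The summed erythroid markers took 0.0672% to 0.0945% of counts in Becn1f/f and 0.0495% to 0.0654% in the libraries labelled Becn1f/f;Pf4-iCre. Of 16 neutrophil markers, 15 were below 0 (median -0.42) and 1 was a DEG, Mmp9, with summed shares of 1.26% to 1.69% and 0.933% to 1.29%. At an unadjusted P under 0.05, 7 of the 16 passed in the lower direction, against 293 of all 12256 tested genes. The count of neutrophil DEGs was 0 by limma-voom, with the GC and length offsets and without Becn1f/f;Pf4-iCre replicate 1. It was 2 without Becn1f/f replicate 1, 4 without Becn1f/f replicate 2 and 8 without Becn1f/f;Pf4-iCre replicate 3. Over all tested genes these fits called 398 of 12386, 410 of 12406 and 340 of 12409, in that order. Of 13 tested macrophage markers, 11 were above 0 (median 0.40) and 4 were DEGs (Mrc1, Cd163, C1qc and Siglec1), with summed shares of 0.0843% to 0.0872% and 0.0885% to 0.104%. DESeq2 and limma-voom also called 4 macrophage markers, limma on log2(FPKM + 1) called 1, and 3 to 5 were called with 1 library left out. The macrophage marker Marco was at 0 counts in at least 1 library. B cell markers (median -0.25, 1 DEG, Igll1), T and NK cell markers (median -0.21, 0 DEGs in edgeR, 1 at an unadjusted P under 0.05), mast cell, basophil and eosinophil markers (median -0.16, 0 DEGs and 0 at an unadjusted P under 0.05 in edgeR) and endothelial and stromal markers (median 0.05, 1 DEG, Kdr) overlapped in summed share. The 10 granule biogenesis genes together took 0.116% to 0.154% of counts in Becn1f/f and 0.114% to 0.128% in the other group. The part of these other cells in the values of the 10 genes was not tested.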

How the data were processed

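The 6 libraries of sorted BM MKs were grouped by the genotype in their titles, which also number the replicates. Reads that failed quality filters were discarded and the rest aligned with HISAT. The authors deposited estimated counts per gene, not normalized, and FPKM values that they scaled for transcript length and library size. Of the counts, 10.3% to 11.3% of genes per library hold values that are not whole. The submitters' processing notes also name Bowtie2 and the mouse build GRCm39. Not used here were 16 per-sample columns, of which 4 are of a library that matches none of the samples, and 8 columns of group means.

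Counts were rounded and fitted with genotype as the only factor in edgeR 4.0.16 (R 4.3.3) by the quasi-likelihood test with TMM factors, filterByExpr and Benjamini-Hochberg adjustment over 12256 genes. CPM uses TMM-scaled library sizes. Fold changes are of libraries labelled Becn1f/f;Pf4-iCre over Becn1f/f. Ratios of FPKM were compared by exact two-sided permutation. Alternatives were DESeq2 1.42.0, limma 3.58.1 (voom, or log2 of FPKM plus 1 or 0.1), other normalization and filters (at least 10 counts per library), a replicate block, spline offsets for GC content and length (5 degrees of freedom), and leaving out each library. The edgeR, DESeq2 and limma-voom fits were also run on negative binomial counts simulated with edgeR's own dispersions from these data. Such a run cannot test whether that model holds here. Replicates of a genotype correlated at 0.98 to 0.992 in log2 CPM and differed beyond sampling noise (15.2 to 50.3 for chi-square divided by its degrees of freedom) and were kept as separate samples.

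The 10 genes and all lists were chosen with earlier results of these data known. Named from each list were its DEGs, otherwise at most the 2 genes of highest mean FPKM, plus Becn1, partners of the ratios and low MK markers. Outside this rule, Wdfy3, Chml, Slc17a9, F13a1, Gata1 and Zfpm1 were named after their values were seen, because their unadjusted P was under 0.05. Intervals cover the spread between libraries.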

Additional observations from a re-analysis of the deposited data

How the results depend on the processing

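None of the 10 genes was a DEG, and none had an adjusted p under 0.05, under any of the 18 alternatives. With no fold threshold 1 of the 10 was called. At an unadjusted P under 0.05 the count was 0 by limma on log2(FPKM + 1), with or without a minimum mean FPKM of 1, 2 with the correction for GC content and length (also with the replicate block), and 0 to 2 with 1 library left out. Over all tested genes that threshold passed 773 of 12256 in the main fit, 960 with the correction and 1150 with the block as well. By limma on log2(FPKM + 1) it passed 944 of 16422, or 663 of 10840 with that minimum. With 1 library left out it passed from 398 of 12393 (without Becn1f/f;Pf4-iCre replicate 2) to 1241 of 12386 (without Becn1f/f replicate 1). The count of all genes called was 121 and 137 by limma on log2(FPKM + 1) without and with that minimum, 432 with a pseudocount of 0.1, 5 by adjusted p, and 225 to 410 with 1 library left out. By adjusted p it was 77 in DESeq2, 23 with no filter, 19 with the replicate block, 15 with the block and GC correction, 8 by upper-quartile scaling or by limma over genes of at least that mean FPKM, 0 by limma on log2(FPKM + 1) or (FPKM + 0.1), and 0 to 27 with 1 library left out. The cause of these differences was not tested.

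Some signs near 0 turned. Vps33b kept its sign in 9 of 18 alternatives and ran from -0.09 to 0.10 with 1 library left out. With 1 library left out, Lyst ran from -0.16 to 0.08 (0.08 without Becn1f/f replicate 3, 0.03 without Becn1f/f;Pf4-iCre replicate 1) and Ap3b1 from -0.03 to 0.01 (0.01 without Becn1f/f replicate 1 or Becn1f/f;Pf4-iCre replicate 3). Ap3d1 was 0.04 with the GC correction, with or without the block, and -0.10 to 0.09 with 1 library left out. With 1 library left out the log2 ratio difference was -0.16 to 0.04 for Vps33b to Vipas39 and -0.16 to 0.05 for Hps3 to Hps5, and DEGs numbered 1 to 2 in alpha granule cargo and in MK markers and 0 to 1 in the BEACH and Rab lists. The replicate block gave 2 in MK markers, with or without the GC correction. Among markers of other cells, neutrophil DEGs numbered 0 by the 3 limma fits on FPKM and with the replicate block, macrophage DEGs 2 by the other 2 limma fits on FPKM, and erythroid DEGs 2 by limma over genes of at least a mean FPKM of 1 and 3 with the block and GC correction. Kdr was no DEG in DESeq2 or by the limma fits on FPKM. With 1 library left out, DEGs numbered 0 to 2 among B cell markers and among mast cell, basophil and eosinophil markers, 0 to 1 among T and NK cell markers and 0 to 3 among endothelial and stromal markers. The 2 scalings other than TMM for the count of separate ranges were added after the data were seen, and the count was 1 under each.

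Same-numbered libraries deviated from their group means with correlations of 0.0685, -0.279 and 0.201, while other pairings ran from -0.297 to 0.241. With 3 libraries per group, these values cannot show whether equal numbers mark a shared batch. With the replicate block, 296 genes were called, 0 of the 10 among them, and Hps5 kept a log2 fold change of 0.34 (unadjusted P = 0.049 in edgeR).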
